A study of Mus musculus with 8 samples.

Results

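The nuclear genes for the subunits of oxidative phosphorylation were followed in RNA sequencing libraries labelled as mouse breast cancer cells. Members were taken by symbol from the gene count table: names that start with Nduf, Uqcr, Cox4, Cox5, Cox6, Cox7, Cox8 or Atp5, together with Sdha, Sdhb, Sdhc, Sdhd and Cyc1, leaving out pseudogene names and names that start with mt-. The rule found 93 of 23478 genes. Of these, 37 were ordinary subunits of complex I, 4 of complex II, 9 of complex III, 11 of complex IV and 15 of complex V. A further 8 were isoforms bound to particular tissues or states (Cox4i2, Cox6a2, Cox6b2, Cox7a1, Cox7b2, Cox8b, Cox8c and Ndufa4l2). The remaining 9 shared a prefix without being subunits: the complex I assembly factors Ndufaf1 to Ndufaf7, and Atp5s and Atp5sl. Counts by complex below are over the ordinary subunits, and the isoforms and the 9 others are given apart. The 37 of complex I include Ndufa4, which carries a complex I name and is known as a subunit of complex IV.

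Oxidative phosphorylation takes place in the inner mitochondrial membrane. Complex I and complex II pass electrons from NADH and succinate to ubiquinone, complex III passes them on to cytochrome c, and complex IV hands them to oxygen. Complexes I, III and IV pump protons, and complex V, the ATP synthase, uses the proton gradient to make ATP. Complex II pumps none and is also an enzyme of the citric acid cycle. Every complex except complex II also has subunits encoded by mitochondrial DNA. The count table lists no gene of the mitochondrial genome, so the nuclear part of each assembly is described without its mitochondrial partners.

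The study compared 4 groups with 2 biological replicates each, all labelled wild type for genotype. DCC control and DCC IFN-gamma are labelled as disseminated cancer cells, a label that the markers below go against, taken from marrow of mice whose breast cancer had spread spontaneously, then cultured without or with interferon gamma, a cytokine of T and NK cells. The dose, the time in culture and the mice's age are not given in the sources used here. Cells labelled early lesion are cancer cells of early mammary tumours of animals whose sample titles carry the neuT transgene name, and TUBO is an established line from a mammary carcinoma of a BALB-neuT mouse, so each TUBO replicate is the same line. No group was called a batch by the labels.

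The gene counts came to between 15432210 and 30168475 per library. DCC control replicate 1 and, in the early lesion group, replicate 2 stood apart from their partners: 49.2% and 44.1% of their tallied reads fell on no gene, against 18.3% to 31.0% in the other 6 libraries. Of 1450 olfactory and vomeronasal receptor genes, 47.7% and 63.7% had a count in these 2 libraries, against 0.966% to 11.9% in the others. The cell labels were checked with markers. Epcam, a surface protein of epithelial cells, was at 0 and 0.158 CPM for DCC control, 0 and 0 for DCC IFN-gamma, 836 and 794 for early lesion and 1034 and 1089 for TUBO. The 11 epithelial markers summed to between 0.459 and 5.97 CPM (counts scaled to TMM-adjusted library size) in the 4 DCC libraries and to between 3220 and 6589 in the other 4. Of the 11, 3 and 2 were at 0 in DCC control, 8 in each DCC IFN-gamma library and 0 in the others. The 13 osteoblast and stromal markers summed to 9757 and 11239 CPM with DCC control, to 841 and 1378 with DCC IFN-gamma, and to 44.4 to 146 in early lesion and TUBO. The 13 macrophage markers summed to 1550 and 1149 CPM in DCC IFN-gamma and to between 77.5 and 133 in the other 6 libraries. In early lesion and TUBO that sum was mostly Cd14, at 73.9 to 107 CPM against 12.3 and 11.3 in DCC control, and 9, 1, 4 and 10 of the 13 were at 0, against 0 in every DCC library. Csf1r, the receptor that macrophages need to grow, was at 18.5 and 16.9 CPM for DCC control, 193 and 147 for DCC IFN-gamma and at most 0.624 for the other 4. DCC control thus also carried macrophage markers, and 8 of the 13 were higher than in early lesion and 10 higher than in TUBO (edgeR, adjusted p under 0.05). The libraries labelled as disseminated cancer cells thus lacked the defining epithelial markers. In such bulk samples, fewer cells of a type and less RNA per cell cannot be told apart. What these differences in markers contribute to the levels below was not tested.

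Promoters were read for what the members share in sequence. RefSeq entries (GRCm38.p6) were matched for 73 of the 93 members, giving 78 windows of 250 bases before and 50 bases after the transcript start. The palindrome-like NRF1 motif (GCGCA, any base, then GCGC), bound by nuclear respiratory factor 1, was in 25.6% of the members' windows and in 4.6% of all 32851 windows of the same length. The ETS motif CCGGAAG, the kind bound by GABP, was in 21.8% against 8.86%, and the YY1 motif AANATGGC was in 21.8% against 6.05%. TATAAA, searched for contrast, was in 10.3% against 13.6%. Both strands were searched for each motif. Among the 26 windows of members that were lower in DCC control than in both other cell sources, the NRF1, ETS and YY1 motifs each occurred in 26.9%, close to their share over all members. The windows of 6 members are shown over the last 170 bases before the start, 5′ to 3′ along the gene's strand. They let the spacing of the NRF1 motif and the ETS motif be read. The 6 were picked by name, and each holds an NRF1 match, which 19 of the 73 matched members had. Capitals mark those 2 motifs on either strand, so CTTCCGG is the ETS motif read on the opposite strand.
Atp5h (chr11:115419920-115420089, minus strand): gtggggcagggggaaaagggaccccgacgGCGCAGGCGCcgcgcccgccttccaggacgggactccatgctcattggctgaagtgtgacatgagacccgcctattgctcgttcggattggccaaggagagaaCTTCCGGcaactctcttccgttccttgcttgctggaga
Atp5k (chr5:108434400-108434569, minus strand): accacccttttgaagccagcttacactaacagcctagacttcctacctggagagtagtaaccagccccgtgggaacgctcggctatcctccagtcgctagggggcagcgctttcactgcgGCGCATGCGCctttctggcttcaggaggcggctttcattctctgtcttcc
Cox6a1 (chr5:115348959-115349128, minus strand): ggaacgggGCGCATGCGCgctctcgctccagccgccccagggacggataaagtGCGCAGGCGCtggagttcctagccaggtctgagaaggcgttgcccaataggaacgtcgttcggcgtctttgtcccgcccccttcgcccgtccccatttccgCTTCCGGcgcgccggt
Ndufa11 (chr17:56717592-56717761, plus strand): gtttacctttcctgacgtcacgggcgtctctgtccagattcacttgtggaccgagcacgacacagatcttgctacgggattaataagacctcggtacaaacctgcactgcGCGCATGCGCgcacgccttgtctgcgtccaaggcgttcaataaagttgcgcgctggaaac
Ndufb4 (chr16:37654369-37654538, minus strand): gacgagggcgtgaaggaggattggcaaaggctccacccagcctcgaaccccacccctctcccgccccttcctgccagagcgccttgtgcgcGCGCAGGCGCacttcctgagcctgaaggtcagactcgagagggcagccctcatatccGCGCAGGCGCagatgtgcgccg
Sdha (chr13:74350241-74350410, minus strand): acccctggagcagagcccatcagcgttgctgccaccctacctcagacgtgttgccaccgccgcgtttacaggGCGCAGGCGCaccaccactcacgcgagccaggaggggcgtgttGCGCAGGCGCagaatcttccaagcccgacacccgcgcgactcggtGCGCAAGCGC
Sdha, the flavin-bearing catalytic subunit of complex II, had 3 NRF1 matches in this stretch, Cox6a1 and Ndufb4 had 2 each, and Atp5h, Atp5k and Ndufa11 had 1 each. Cox6a1 and Atp5h also held an ETS match. Atp5h, Atp5k, Cox6a1 and Ndufa11 were all lower in DCC control than in TUBO and in early lesion, while Ndufb4 was not called in either comparison and Sdha only against early lesion. The early lesion calls of Atp5h, Cox6a1 and Ndufa11 were lost when single libraries were left out, as were the TUBO calls of Atp5k and Cox6a1. A relation between motifs and calls was not tested. A match is a stretch of letters and not a measured binding site.

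Levels are compared between genes only per kilobase of exon (all exons of the gene merged, GENCODE M21 on GRCm38). On that scale, averaged over the 8 libraries, Cox8a was at 541 CPM per kb and Cox6a1 at 495, the highest of the members, and both are small nuclear subunits of complex IV. Atp5c1, the central shaft of the ATP synthase, led complex V at 263, Uqcr10 led complex III at 219 and Ndufb9 led complex I at 172. The 4 subunits of complex II lay between 29.4 for Sdhc and 51.4 for Sdhd. The medians were 44.9 CPM per kb for complex I, 38.7 for complex II, 44.4 for complex III, 79.3 for complex IV and 79.8 for complex V, isoforms included. The complex IV median is over 18 genes, among them restricted isoforms, the highest of which was Cox6a2 at 4.72. Complex V holds no such isoform. The middle value of the 11 ordinary complex IV subunits was 137, that of Cox4i1. The complex I median includes Ndufs5 at 0 and Ndufa4l2 at 0.480. No exon length was found for Atp5o, so it is not in the complex V median. The lowest of complex III was the Rieske iron-sulfur protein Uqcrfs1 at 22.3, and the lowest of complex V was Atp5l, a small membrane subunit, at 21.8. Complex I reached lower, to 8.68 for Ndufab1, the acyl carrier protein, and 8.70 for Ndufs1. This order depends on the merged exon length, which was 6443 bases for Atp5l, 6883 for Ndufab1 and 8086 for Ndufs1. For Ndufa1, at 110 CPM per kb, it was 419 bases. Before division by length, Ndufab1 was at 46.8 to 81.8 CPM and Ndufa1 at 35.3 to 59.2. A low value per kilobase is thus not always a low count. Ndufs5, a complex I subunit, is listed at 0 in all 8 libraries.

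Summed over all 93 members, the level was 7884 and 8442 for DCC control, 7977 and 9053 for DCC IFN-gamma, 12008 and 10822 for early lesion and 12127 and 14732 for TUBO (CPM). All 4 DCC libraries lay below all 4 libraries of early lesion and TUBO. The DCC control mean was 0.715 times the early lesion mean and 0.608 times the TUBO mean, and the DCC IFN-gamma mean was 1.04 times the DCC control mean. Complex IV, cytochrome c oxidase, summed to 1618 and 1731 for DCC control, 1706 and 2199.7 for DCC IFN-gamma, 2906 and 2498 for early lesion and 2808 and 3549.5 for TUBO. Its DCC control mean was 0.620 of early lesion and 0.527 of TUBO, the lowest ratios of the 5 complexes. Complex V summed to 2847 and 2961 for DCC control, 2877 and 3149 for DCC IFN-gamma, 4464 and 4144 for early lesion and 4328 and 5041 for TUBO, with ratios of 0.675 and 0.620. The largest assembly, complex I, summed to 2255 and 2492 for DCC control, 2182 and 2481 for DCC IFN-gamma, 3139 and 2803 for early lesion and 3465 and 4340.3 for TUBO. Here the ratio to early lesion was 0.799 and the ratio to TUBO 0.608. For complex III the sums were 624 and 701 for DCC control, 691 and 721 for DCC IFN-gamma, 895 and 819 for early lesion and 959.9 and 1197 for TUBO, with ratios of 0.773 and 0.614.

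Complex II differed least between the sources, at 379.8 and 398 for DCC control, 366 and 382 for DCC IFN-gamma, 479.8 and 438 for early lesion and 428 and 446 for TUBO, with ratios of 0.848 to early lesion and 0.891 to TUBO. It made up 4.81% to 4.92% of the summed subunit level in DCC control, 4.28% to 4.68% in DCC IFN-gamma, 4.04% to 4.09% in early lesion and 3.06% to 3.57% in TUBO. No library of DCC control overlapped one of early lesion or TUBO in that share. For complex IV the share was 20.9% to 21.0% in DCC control, 21.8% to 24.6% in DCC IFN-gamma, 23.3% to 24.5% in early lesion and 23.4% to 24.4% in TUBO. These shares are sums led by the most abundant subunits, and the difference between complexes was not tested.

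**Figure D1:**
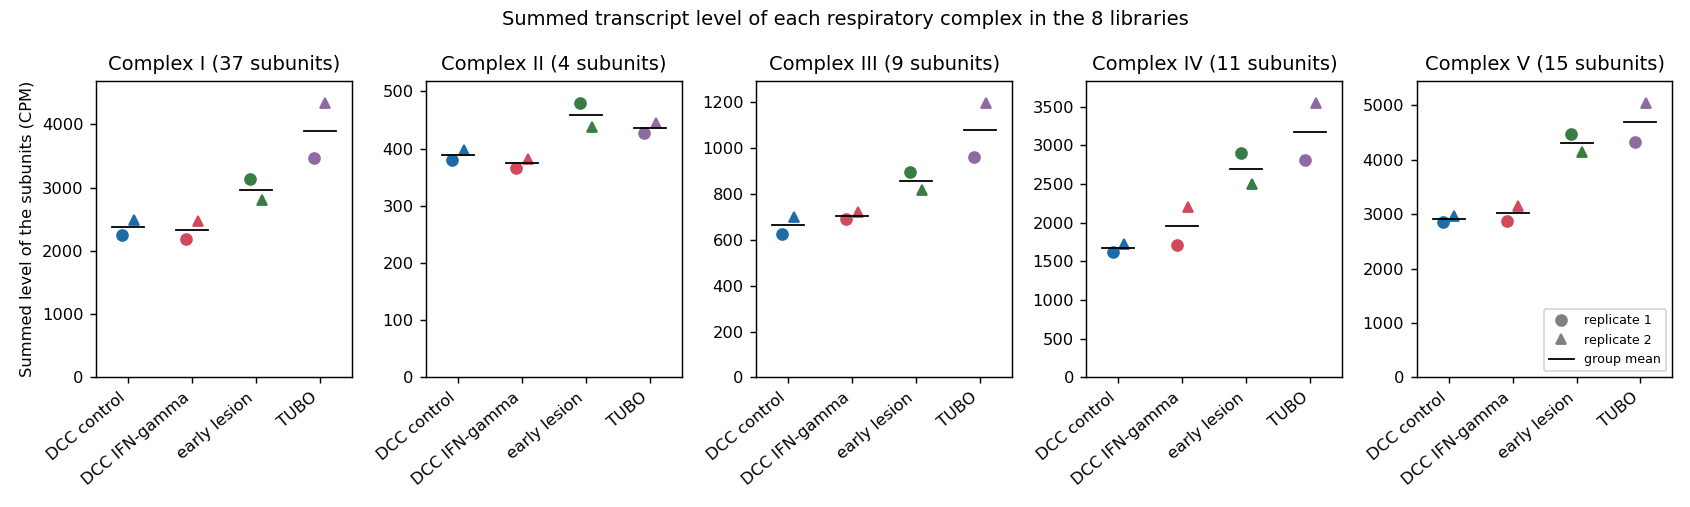
Summed level of the ordinary subunits of each complex in CPM (vertical axes start at 0 and differ between panels), with 1 point per library, circles for replicate 1, triangles for replicate 2 and a bar at the group mean. All 5 complexes are lower in both DCC groups than in early lesion and TUBO, and complex II, with the smallest differences, runs from 366 to 480 CPM over all 8 libraries.

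DCC control, from the bone marrow, was compared with early lesion, from the primary site, and with the TUBO line. Both comparisons use the same 2 DCC control libraries, so their results are given side by side and the second is no separate evidence for the first. Of the 89 members with enough counts to be tested, 36 were lower and 5 higher in DCC control than in early lesion (edgeR, adjusted p under 0.05), which is 40.4% and 5.62% against 18.7% and 19.1% of all 17069 genes. Against TUBO, 51 were lower and 3 higher, which is 57.3% and 3.37% against 19.9% and 22.1%. The median log2 fold change of the 75 tested ordinary subunits was -0.44 against early lesion, with 0.23 for all genes, and -0.71 against TUBO, with 0.37 for all genes. In 55 of these 75 subunits the 2 DCC control libraries lay below both early lesion libraries, and in 66 below both TUBO libraries, which holds for 31.8% and 31.0% of all genes. In both comparisons 29 members were lower, or 32.6% against 13.6% of all genes: 9 of complex I, 3 of complex III, 8 of complex IV and 9 of complex V. Only 3 were higher in both, Sdhb, Ndufaf4 and Cox6a2, or 3.37% against 13.3%.

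The count against early lesion depended on single libraries. It fell when any 1 of the 4 libraries was left out, and so did the lower count against TUBO. Such fits leave 1 library in a group, and their fold changes are given here. Against early lesion the median of the 75 subunits was -0.43 and -0.49 without DCC control replicate 1 and 2. Without early lesion replicate 1 and 2 it was -0.43 and -0.49. Against TUBO the median was -0.68 and -0.74 without DCC control replicate 1 and 2, and -0.76 and -0.57 without TUBO replicate 1 and 2. Leaving out both libraries that stood apart (chosen after seeing the data) left 11 lower and 4 higher against early lesion, 12.4% and 4.49% against 13% of all genes in either direction, and 25 lower and 2 higher against TUBO, 28.1% and 2.25% against 14.5% and 18.2%. The fold changes moved less: in that fit 64 of the 75 subunits were below 0 against early lesion, with a median of -0.50, and 69 against TUBO, with a median of -0.68. The 3 higher against TUBO also became fewer with any single library left out.

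**Figure D2:**
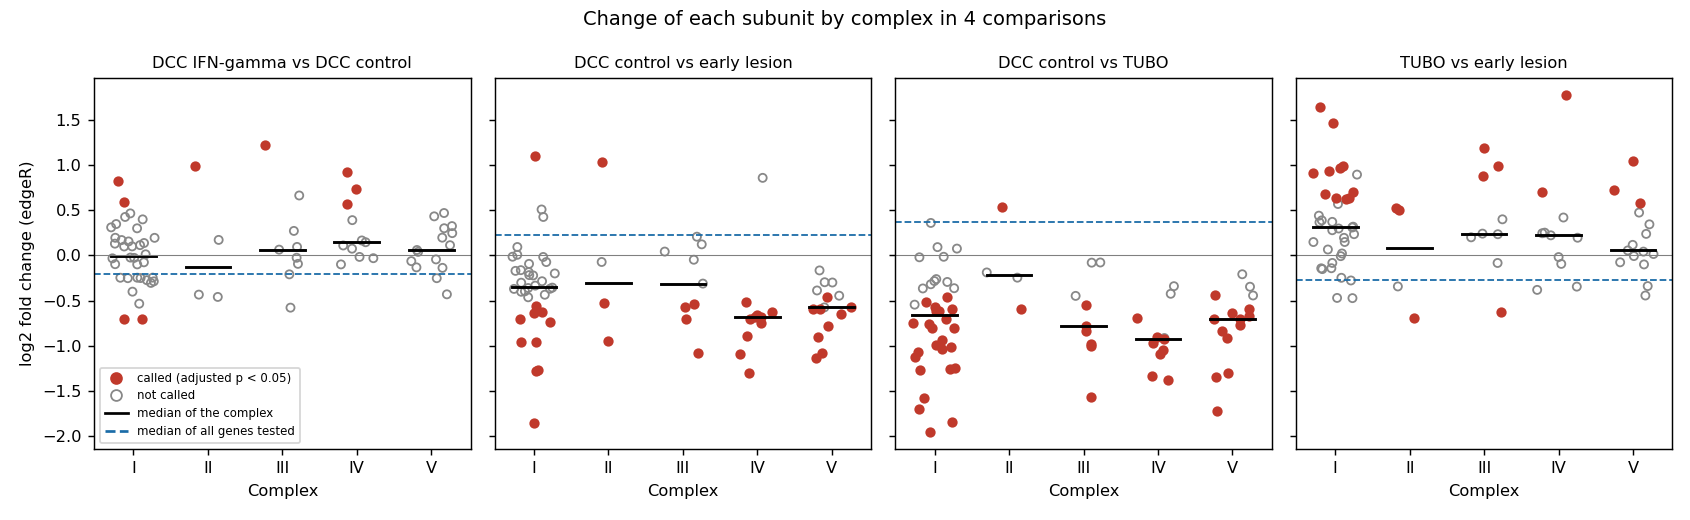
log2 fold change (vertical axis, edgeR) of each tested ordinary subunit, by complex, in the 4 comparisons, with filled points for adjusted p under 0.05, a black bar at the complex median and a dashed line at the median of all genes tested. In both DCC control panels the medians of complexes I to V are below 0 while the median of all genes is above 0.

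Complex I, the entry point for NADH, had 10 of its 36 tested subunits lower and 1 higher in DCC control than in early lesion. The median log2 fold change was -0.34. Against TUBO 24 were lower and 0 higher, with a median of -0.66. The lower shares are 27.8% against 18.7% of all genes and 66.7% against 19.9%. The higher shares are 2.78% against 19.1% and 0% against 22.1%. Ndufa4 is among the lower ones in both. None of the 36 was higher against TUBO at an unadjusted p under 0.05 or by DESeq2 either, where 27.5% and 29.5% of all genes were. Its catalytic core of 7 genes had 1 lower against early lesion and 4 against TUBO. That is 14.3%, below the 18.7% of all genes, and 57.1% against 19.9%. Ndufs1, the largest iron-sulfur protein of that core, was at 48.5 and 59.0 CPM for DCC control, 59.3 and 55.9 for DCC IFN-gamma, 80.2 and 78.5 for early lesion and 94.6 and 87.0 for TUBO. The log2 fold change was -0.56 ± 0.15, adjusted p = 0.0151 against early lesion and -0.76 ± 0.15, adjusted p = 0.00272 against TUBO. For Ndufv1, which binds NADH and flavin, the levels were 53.1 and 47.2 CPM for DCC control, 36.6 and 47.9 for DCC IFN-gamma, 57.3 and 49.5 for early lesion and 96.7 and 105 for TUBO. DCC control overlapped early lesion (-0.09 ± 0.18, adjusted p = 0.784) and was below TUBO (-1.01 ± 0.18, adjusted p = 0.0011).

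The accessory subunits, which surround the core, held the widest range. The lowest fold changes of all members were those of Ndufb8 against TUBO and of Ndufa4 against early lesion. Ndufa4 is counted with complex I by its name, although it is known as a subunit of complex IV. Ndufb8 (chr19:44548572-44555440, minus strand), a membrane-arm subunit, was at 34.9 and 45.1 CPM for DCC control, 62.9 and 57.4 for DCC IFN-gamma, 79.9 and 76.0 for early lesion and 139 and 171 for TUBO. The 4 groups did not overlap, DCC control being lowest and TUBO highest (-1.95 ± 0.18, adjusted p = 1.20e-05 against TUBO and -0.96 ± 0.18, adjusted p = 0.00145 against early lesion). Ndufa4 (chr6:11900292-11907497, minus strand) was at 30.3 and 36.4 CPM for DCC control, 61.1 and 57.3 for DCC IFN-gamma, 129 and 112 for early lesion and 90.9 and 126 for TUBO. Both DCC groups lay below early lesion and TUBO, and these last 2 overlapped (-1.85 ± 0.19, adjusted p = 3.27e-05 against early lesion and -1.70 ± 0.19, adjusted p = 5.47e-05 against TUBO). Ndufb3 and Ndufb7, both of the membrane arm, were lower against early lesion by the next largest amounts in complex I (-1.28 ± 0.20, adjusted p = 5.34e-04 for Ndufb7 and -1.27 ± 0.19, adjusted p = 3.94e-04 for Ndufb3). Ndufb7 was at 35.0 and 49.1 CPM for DCC control, 50.5 and 45.9 for DCC IFN-gamma, 111 and 93.6 for early lesion and 77.2 and 95.4 for TUBO. Ndufb3 was at 36.4 and 48.6 CPM for DCC control, 40.7 and 51.5 for DCC IFN-gamma, 109 and 95.8 for early lesion and 90.2 and 95.5 for TUBO. In both genes the DCC libraries did not reach the level of any early lesion or TUBO library.

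Ndufa6, a matrix-arm subunit, and Ndufb9 had larger changes against TUBO than against early lesion. Ndufa6 was at 52.8 and 65.0 CPM for DCC control, 54.1 and 95.9 for DCC IFN-gamma, 75.8 and 59.5 for early lesion and 167 and 255 for TUBO, with -1.84 ± 0.32, adjusted p = 0.00216 against TUBO and -0.20 ± 0.31, adjusted p = 0.726 against early lesion. Ndufb9 was at 103 and 103 CPM for DCC control, 139 and 138 for DCC IFN-gamma, 175 and 146 for early lesion and 282 and 332 for TUBO, with -1.57 ± 0.16, adjusted p = 2.04e-05 against TUBO and -0.64 ± 0.15, adjusted p = 0.00725 against early lesion. The single complex I subunit that was higher was Ndufb6 (chr4:40270591-40279421, minus strand), also of the membrane arm. Its levels were 21.6 and 22.9 CPM for DCC control, 28.4 and 26.8 for DCC IFN-gamma, 10.2 and 10.5 for early lesion and 25.3 and 32.0 for TUBO. Early lesion was below every other library, and DCC control and TUBO did not overlap (1.11 ± 0.20, adjusted p = 0.00147 against early lesion and -0.37 ± 0.20, adjusted p = 0.162 against TUBO).

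Complex II, succinate dehydrogenase, did not move as a block. Against early lesion 2 of its 4 genes were lower and 1 higher (median log2 fold change -0.30). Against TUBO 1 was lower and 1 higher (median -0.22). The lower shares are 50% and 25% against 18.7% and 19.9% of all genes. The higher shares are 25% in both, against 19.1% and 22.1%. Sdhb (chr4:140961203-140979193, plus strand), the iron-sulfur subunit that carries electrons from the flavin to the quinone site, was at 90.8 and 92.5 CPM for DCC control, 111 and 95.6 for DCC IFN-gamma, 45.7 and 43.5 for early lesion and 59.6 and 66.7 for TUBO. All 4 DCC libraries lay above all 4 others (1.04 ± 0.15, adjusted p = 3.24e-04 against early lesion and 0.54 ± 0.15, adjusted p = 0.0145 against TUBO). The call against TUBO was lost without either DCC control library and without TUBO replicate 1, and the fold change ran from 0.52 to 0.65 over all alternatives. Sdhd (chr9:50596357-50603812, minus strand), a membrane anchor, ran the other way at 44.8 and 38.3 CPM for DCC control, 86.7 and 78.8 for DCC IFN-gamma, 80.0 and 79.5 for early lesion and 54.5 and 43.9 for TUBO. DCC control was below early lesion (-0.94 ± 0.17, adjusted p = 0.00123) and overlapped TUBO (-0.25 ± 0.17, adjusted p = 0.247). The other anchor, Sdhc, was at 85.0 and 93.1 CPM for DCC control, 58.3 and 71.3 for DCC IFN-gamma, 97.3 and 90.0 for early lesion and 134 and 135 for TUBO, below TUBO (-0.59 ± 0.15, adjusted p = 0.00986) and overlapping early lesion (-0.07 ± 0.15, adjusted p = 0.81). Sdha, the flavin subunit, was at 159 and 174 CPM for DCC control, 110.2 and 137 for DCC IFN-gamma, 257 and 225 for early lesion and 179.8 and 200.2 for TUBO, below early lesion (-0.53 ± 0.16, adjusted p = 0.024) with no call against TUBO (-0.19 ± 0.16, adjusted p = 0.35). Each of the 4 genes thus had its own order of the groups.

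Complex III had 4 of 9 subunits lower against early lesion (median -0.31) and 6 of 9 against TUBO (median -0.78). The lower shares are 44.4% and 66.7% against 18.7% and 19.9% of all genes. By edgeR 0 were higher in either, where 19.1% and 22.1% of all genes were. It was also 0 at an unadjusted p under 0.05 and by DESeq2. Against early lesion, 22.7% and 25.8% of all genes were higher by those 2 rules. The Rieske protein Uqcrfs1, which takes electrons from ubiquinol, was at 15.8 and 20.5 CPM for DCC control, 31.0 and 26.7 for DCC IFN-gamma, 35.4 and 41.5 for early lesion and 43.0 and 29.6 for TUBO, lower against both (-1.08 ± 0.23, adjusted p = 0.00398 for early lesion and -1.0 ± 0.23, adjusted p = 0.00588 for TUBO). The core proteins Uqcrc1 and Uqcrc2, which hold the complex together on the matrix side, had log2 fold changes of -0.78 ± 0.14, adjusted p = 0.00119 and -0.55 ± 0.15, adjusted p = 0.015 against TUBO. Against early lesion the values were -0.54 ± 0.14, adjusted p = 0.011 and -0.31 ± 0.15, adjusted p = 0.146. Cyc1, the haem-bearing subunit that reduces cytochrome c, was at 43.1 and 55.4 CPM for DCC control, 58.9 and 46.3 for DCC IFN-gamma, 45.5 and 50.2 for early lesion and 80.7 and 95.8 for TUBO. It overlapped early lesion (0.04 ± 0.19, adjusted p = 0.924) and was below TUBO (-0.84 ± 0.19, adjusted p = 0.00498). Uqcr10, a small subunit, had the largest change of the complex, at 80.0 and 82.3 CPM for DCC control, 66.1 and 74.4 for DCC IFN-gamma, 128 and 113 for early lesion and 192 and 288 for TUBO and -1.56 ± 0.20, adjusted p = 1.13e-04 against TUBO. Its call against early lesion (-0.58 ± 0.19, adjusted p = 0.0381) was lost when any 1 of the 4 libraries compared was left out.

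Complex IV had 10 of its 11 members lower against early lesion (median -0.68) and 8 of 11 against TUBO (median -0.92). The lower shares are 90.9% and 72.7% against 18.7% and 19.9% of all genes. None of the 11 was higher by edgeR, also at an unadjusted p under 0.05, while DESeq2 called 1 higher against early lesion. Of all genes, 19.1% and 22.1% were higher by edgeR, and 22.7% and 27.5% at the unadjusted p. Cox7a2 (chr9:79755361-79759878, minus strand), the form of subunit VIIa found in most tissues, was at 106 and 125 CPM for DCC control, 198 and 238 for DCC IFN-gamma, 319 and 249 for early lesion and 185 and 251 for TUBO. DCC control was below all other libraries (-1.30 ± 0.20, adjusted p = 5.11e-04 against early lesion and -0.92 ± 0.20, adjusted p = 0.00389 against TUBO). Cox7c, another small subunit, was at 135 and 145 CPM for DCC control, 146 and 168 for DCC IFN-gamma, 333 and 264 for early lesion and 286 and 423 for TUBO, with -1.09 ± 0.21, adjusted p = 0.00179 and -1.34 ± 0.21, adjusted p = 4.84e-04. Cox8a, the most abundant member per kilobase, was at 216 and 211 CPM for DCC control, 170.2 and 291 for DCC IFN-gamma, 344 and 340.0 for early lesion and 505 and 604 for TUBO. It was lower against TUBO (-1.38 ± 0.23, adjusted p = 7.96e-04), and its lower call against early lesion (-0.68 ± 0.23, adjusted p = 0.0382) was lost without any 1 of the 4 libraries. Cox4i1, the largest nuclear subunit, was at 149.7 and 152 CPM for DCC control, 124 and 194 for DCC IFN-gamma, 235 and 229 for early lesion and 278 and 343 for TUBO, and its 2 fold changes were -0.62 ± 0.21, adjusted p = 0.036 and -1.04 ± 0.21, adjusted p = 0.00231. Its call against early lesion was likewise lost without any 1 of the 4.

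The exceptions in complex IV were few. Cox7a2l (chr17:83501918-83517330, minus strand), which ties complex III to complex IV in supercomplexes and is not a subunit of the free enzyme, was at 128 and 178 CPM for DCC control, 86.0 and 217 for DCC IFN-gamma, 87.1 and 81.7 for early lesion and 277 and 299.8 for TUBO. It was the 1 member of this complex with a positive value against early lesion (0.86 ± 0.40, adjusted p = 0.157). By edgeR it was not called there or against TUBO (-0.91 ± 0.40, adjusted p = 0.117). DESeq2 called it higher in DCC control than in early lesion and lower than in TUBO. Its 2 DCC IFN-gamma replicates differed more than those of any other member above 10 CPM in that group. Cox5a was lower against early lesion only (-0.52 ± 0.16, adjusted p = 0.0295), with -0.42 ± 0.16, adjusted p = 0.0607 against TUBO. Its early lesion call was lost without any 1 of the 4 libraries.

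Complex V had 9 of 15 subunits lower against early lesion (median -0.57) and 12 of 15 against TUBO (median -0.70). The lower shares are 60% and 80% against 18.7% and 19.9% of all genes. In complex V 0 were higher in either by edgeR, at an unadjusted p under 0.05 or by DESeq2. Of all genes, 19.1%, 22.7% and 25.8% were higher against early lesion by these rules, and 22.1%, 27.5% and 29.5% against TUBO. All 15 fold changes were below 0 in both. Atp5j2 (chr5:145183698-145192062, minus strand), the f subunit of the membrane sector, was at 41.2 and 45.1 CPM for DCC control, 48.3 and 54.2 for DCC IFN-gamma, 95.4 and 94.2 for early lesion and 119.7 and 165 for TUBO. The 4 groups did not overlap, in the order DCC control, DCC IFN-gamma, early lesion and TUBO (-1.14 ± 0.18, adjusted p = 5.49e-04 against early lesion and -1.72 ± 0.18, adjusted p = 3.13e-05 against TUBO). The catalytic beta subunit Atp5b was at 514 and 582 CPM for DCC control, 629.8 and 627 for DCC IFN-gamma, 875 and 847 for early lesion and 813 and 929 for TUBO, with -0.65 ± 0.16, adjusted p = 0.00883 and -0.67 ± 0.16, adjusted p = 0.00726. Its partner in the catalytic head, the alpha subunit Atp5a1, was at 479 and 492 CPM for DCC control, 487 and 525 for DCC IFN-gamma, 683 and 654 for early lesion and 752 and 826 for TUBO, with -0.46 ± 0.15, adjusted p = 0.0361 and -0.70 ± 0.15, adjusted p = 0.00405. The alpha call against early lesion was lost without any 1 of the 4 libraries, and the beta call without DCC control replicate 1 and without early lesion replicate 1. For Atp5b the call against TUBO was also lost without DCC control replicate 1 and without TUBO replicate 2.

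The proton-carrying c ring of complex V is made from 1 peptide encoded by 3 genes, and these differed. Atp5g1, known as the regulated copy, was at 193 and 188 CPM for DCC control, 134 and 149 for DCC IFN-gamma, 277 and 241 for early lesion and 213 and 271 for TUBO and was called in neither comparison (-0.45 ± 0.16, adjusted p = 0.055 and -0.35 ± 0.16, adjusted p = 0.115). Atp5g2 was at 109.9 and 124 CPM for DCC control, 84.4 and 129 for DCC IFN-gamma, 158 and 190.5 for early lesion and 267 and 308 for TUBO, below TUBO (-1.30 ± 0.21, adjusted p = 6.23e-04) and not called against early lesion (-0.57 ± 0.21, adjusted p = 0.0514). Atp5g3 was at 69.5 and 63.7 CPM for DCC control, 84.6 and 82.1 for DCC IFN-gamma, 119 and 131 for early lesion and 120.0 and 117 for TUBO, below both (-0.91 ± 0.14, adjusted p = 5.03e-04 and -0.83 ± 0.14, adjusted p = 8.20e-04). Reads that fit more than 1 place are tallied apart from the genes in the deposited table, so values of near-identical copies are uncertain. Atp5e, the epsilon subunit, was lower against TUBO alone, at 53.3 and 42.3 CPM for DCC control, 43.7 and 59.6 for DCC IFN-gamma, 52.1 and 65.5 for early lesion and 95.1 and 147 for TUBO (-0.30 ± 0.25, adjusted p = 0.426 and -1.34 ± 0.25, adjusted p = 0.00187). Over all members, 10 of the 36 lower calls against early lesion and 25 of the 51 against TUBO were kept in every alternative tried. The 10 were Ndufa4, Ndufb3, Ndufb7, Sdhd, Cox6b1, Cox7a2, Cox7c, Atp5g3, Atp5j2 and Atp5k. Single libraries also ended the early lesion calls of Ndufs1 (DCC control replicate 1 and both early lesion replicates), Ndufb9 (replicate 1 of either group), Sdha (both DCC control replicates and early lesion replicate 1) and Uqcrc1 (replicate 2 of either group), with adjusted p of up to 0.283 over all alternatives. They ended the TUBO calls of Cyc1 (DCC control replicate 1) and of Sdhc, Uqcrc2 and Uqcrfs1 (replicate 1 of either group), with adjusted p of up to 0.207.

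**Figure D3:**
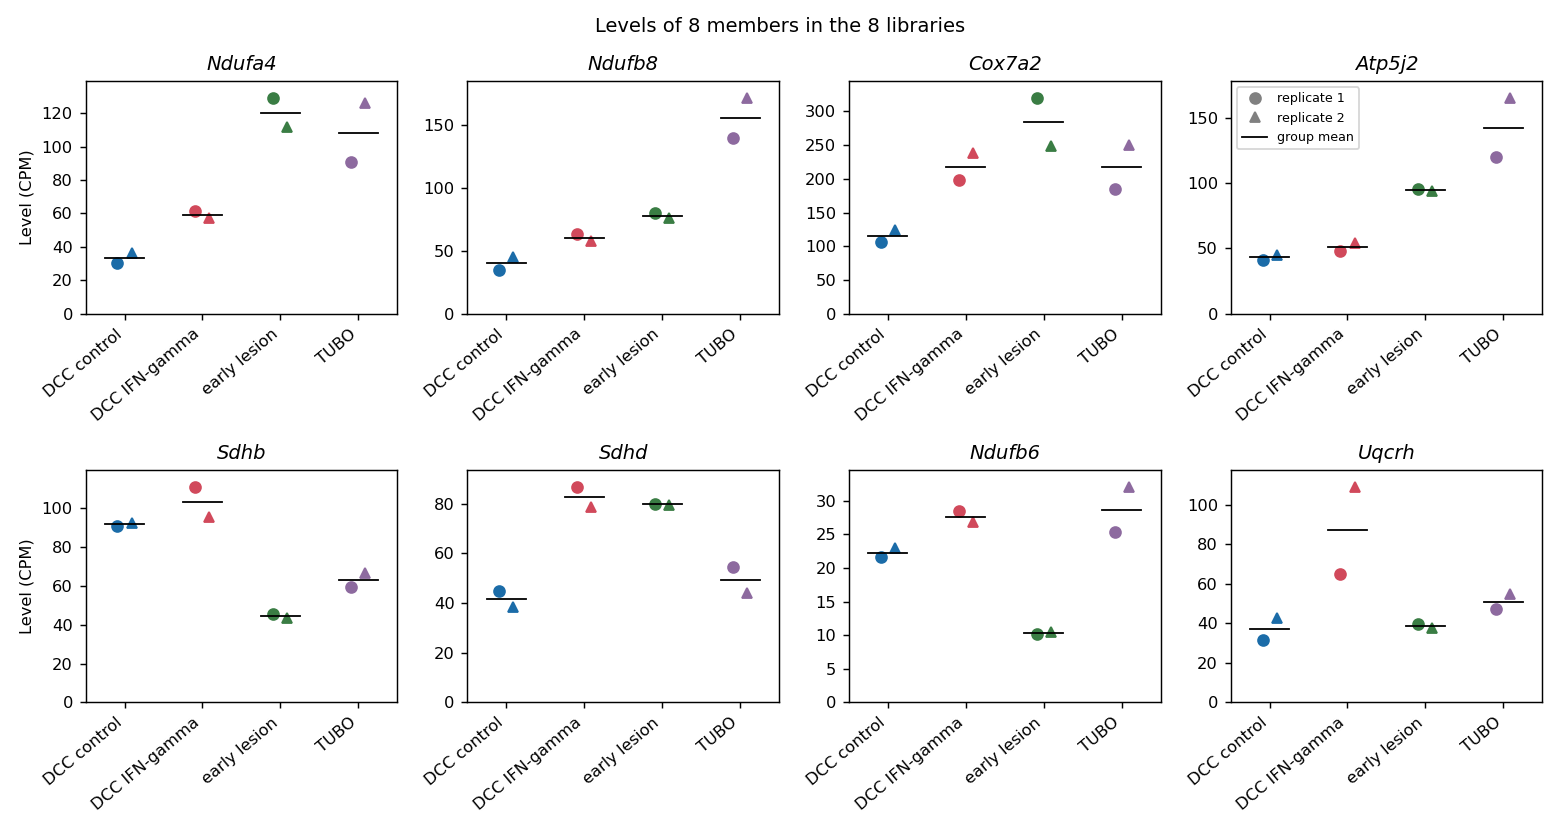
Level in CPM (vertical axes start at 0 and differ between panels) of 8 members in each library, circles for replicate 1, triangles for replicate 2 and a bar at the group mean. Ndufa4, Ndufb8, Cox7a2 and Atp5j2 are lowest in DCC control, Sdhb is highest in the DCC groups, Ndufb6 is lowest in early lesion, and Sdhd and Uqcrh are higher in DCC IFN-gamma than in DCC control.

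TUBO and early lesion were compared with each other. Their libraries also served in the comparisons with DCC control, so this comparison is no separate evidence from those. Of the 89 members, 23 were higher and 2 lower in TUBO, which is 25.8% and 2.25% against 11.4% and 12.7% of all genes. The median log2 fold change of the ordinary subunits was 0.24, with -0.27 for all genes. Complex I had 11 of 36 higher and 0 lower (median 0.31), complex II 2 higher and 1 lower (median 0.08), complex III 3 higher and 1 lower (median 0.24), complex IV 2 higher and 0 lower (median 0.22) and complex V 3 higher and 0 lower (median 0.06). At an unadjusted p under 0.05, where 20% of all genes were lower, 2 of complex I, 0 of complex IV and 2 of complex V were lower, and DESeq2 called 0, 0 and 1, with 20.8% of all genes. The 11 complex I subunits higher in TUBO included Ndufa6 (1.64 ± 0.31, adjusted p = 0.00737), Ndufb6 (1.47 ± 0.20, adjusted p = 5.88e-04), Ndufb8 (0.99 ± 0.17, adjusted p = 0.00232) and Ndufb9 (0.94 ± 0.15, adjusted p = 0.00154). Cox7a2l was higher in TUBO (1.77 ± 0.41, adjusted p = 0.0228), but the call was lost without any 1 of the 4 libraries.

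In complex III, Uqcrq, a small subunit at the quinone side, was at 60.0 and 57.8 CPM for early lesion and 106 and 163 for TUBO (1.19 ± 0.20, adjusted p = 0.00178), and Uqcr10 and Cyc1 were also higher (0.99 ± 0.19, adjusted p = 0.00436 and 0.88 ± 0.19, adjusted p = 0.00741). Atp5e led complex V (1.04 ± 0.25, adjusted p = 0.0133). The Cyc1 and Atp5e calls were lost without early lesion replicate 1 and without TUBO replicate 2 (adjusted p up to 0.111). The 2 lower members were Sdhd (-0.70 ± 0.17, adjusted p = 0.0122) and Uqcrb, a ubiquinone-binding subunit (-0.62 ± 0.19, adjusted p = 0.04), at 264 and 192 CPM for early lesion and 127 and 169 for TUBO. In complex II, Sdhd and Sdhb or Sdhc thus had opposite signs (0.50 ± 0.15, adjusted p = 0.0343 for Sdhb and 0.52 ± 0.15, adjusted p = 0.0312 for Sdhc), and the Sdhb and Sdhc calls were lost without any 1 of the 4 libraries. The count of 23 fell when any 1 of the 4 libraries was left out, and so did the count of 2 lower. The median of the ordinary subunits was then 0.31 and 0.18 without early lesion replicate 1 and 2, and 0.30 and 0.13 without TUBO replicate 1 and 2. Without both libraries that stood apart, 5 were higher and 0 lower, 5.62% and 0% against 5.02% and 7.29% of all genes, with a median of 0.18. The 5 kept in every alternative were Ndufb6, Ndufb8, Uqcrq, Cox6a2 and Ndufaf6.

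Interferon gamma was compared with control within the DCC cultures. Of the 89 members, 7 were higher and 4 lower, which is 7.87% and 4.49% against 12.6% and 8.83% of all genes, a smaller share of the members than of all genes in each direction. The median of the ordinary subunits was 0.08, with -0.20 for all genes. Complex I had 2 higher, Ndufb8 and Ndufa4 (counted here by its name), and 2 lower of 36 (median -0.01). Complex II had 1 higher of 4 (median -0.13), complex III 1 higher of 9 (median 0.06) and complex IV 3 higher of 11 (median 0.15). Complex V had 0 of 15 called (median 0.06), with 3 higher and 1 lower at an unadjusted p under 0.05 and 1 higher and 1 lower by DESeq2. Those rules called 18.1% and 15.9%, and 15.1% and 14.4%, of all genes. Lower calls were 0 in complexes II, III and IV, with 2, 1 and 0 at an unadjusted p under 0.05 and the same numbers by DESeq2.

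The highest fold change was that of Uqcrh (chr4:116066965-116075071, minus strand), the hinge protein of complex III that contacts cytochrome c. It was at 31.7 and 42.9 CPM for DCC control, 65.1 and 109 for DCC IFN-gamma, 39.4 and 37.8 for early lesion and 47.4 and 54.5 for TUBO, and the 2 treated libraries were above the other 6 (1.22 ± 0.25, adjusted p = 0.00636). Sdhd was next (1.0 ± 0.17, adjusted p = 0.0022). Its treated libraries, at 86.7 and 78.8 CPM, did not overlap DCC control or TUBO. The other complex II genes had values of 0.17 ± 0.15, adjusted p = 0.416 for Sdhb, -0.43 ± 0.16, adjusted p = 0.0833 for Sdha and -0.46 ± 0.15, adjusted p = 0.0575 for Sdhc, none of them called. Ndufa4 and the complex IV subunits Cox7a2, Cox5a and Cox6b1 were also higher (0.83 ± 0.19, adjusted p = 0.0114 for Ndufa4, 0.92 ± 0.20, adjusted p = 0.00894 for Cox7a2, 0.74 ± 0.16, adjusted p = 0.00978 for Cox5a and 0.57 ± 0.18, adjusted p = 0.0452 for Cox6b1). Cox5a was at 88.1 and 101 CPM for DCC control, 167 and 149 for DCC IFN-gamma, 144 and 127 for early lesion and 114 and 140.3 for TUBO, so that the treated libraries were above all others. Ndufb8 was higher as well (0.59 ± 0.17, adjusted p = 0.0382).

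Lower with interferon gamma were the membrane-arm subunits Ndufb4 (-0.70 ± 0.20, adjusted p = 0.0292) and Ndufb2 (-0.71 ± 0.21, adjusted p = 0.0347), the complex I assembly factor Ndufaf7 (-0.91 ± 0.26, adjusted p = 0.0335) and Atp5s (-1.76 ± 0.41, adjusted p = 0.0124). Ndufb4 (chr16:37647170-37654453, minus strand) was at 223 and 246 CPM for DCC control, 122 and 167 for DCC IFN-gamma, 180.2 and 149.9 for early lesion and 161 and 205 for TUBO, so DCC control was above all other libraries. Only Sdhd kept its call in every alternative. Without DCC control replicate 1 the higher count fell to 1, and the calls of Uqcrh, Cox7a2, Ndufa4, Cox5a, Cox6b1 and Ndufb8 were lost, with Uqcrh at an adjusted p of up to 0.105. The lower count was 1 or 0 when replicate 1 or 2 of DCC control was left out, and 2 or 10 when replicate 1 or 2 of DCC IFN-gamma was. Without both libraries that stood apart it was 1 higher and 1 lower, 1.12% each against 6.44% and 4.03% of all genes. With upper quartile factors the median of all genes moved by -0.20, 52 in place of 33 of the 75 subunits were below 0, and 5 were higher and 9 lower.

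Apart from Cox6a2, the restricted isoforms were near the limit of detection. Cox6a2 (chr7:128205435-128206387, minus strand), the heart and muscle form of subunit VIa, was at 6.09 and 7.76 CPM for DCC control, 3.67 and 4.76 for DCC IFN-gamma, 0 and 0 for early lesion and 1.48 and 1.91 for TUBO. It was higher in DCC control than in TUBO (2.03 ± 0.61, adjusted p = 0.0248), a call lost without any 1 of the 4 libraries (adjusted p up to 0.178). No count was found in early lesion, so that DCC control was at least 60.4-fold and TUBO at least 14.8-fold higher, taking 3 counts in each early lesion library as the floor. Cox6a2 lies with its whole span, 953 bases, inside Itgad, an integrin gene on the opposite strand. Without the strand setting, reads of the 2 genes cannot be told apart. The 11 striated muscle markers summed to 12.8 and 7.05 CPM in DCC control against 0.542 to 8.34 in the other 6 libraries. Its ubiquitous partner Cox6a1 was at 258 and 261 CPM for DCC control, 252 and 322 for DCC IFN-gamma, 457 and 391 for early lesion and 368 and 469.9 for TUBO (-0.71 ± 0.19, adjusted p = 0.0116 against early lesion and -0.69 ± 0.19, adjusted p = 0.0122 against TUBO). Both Cox6a1 calls were lost without either DCC control library, and the first also without early lesion replicate 1 and the second without TUBO replicate 2 (adjusted p up to 0.118). Ndufa4l2, known from cells short of oxygen, was at 1.03 and 2.06 CPM for DCC control, 0.110 and 0.834 for DCC IFN-gamma, 0 and 0.134 for early lesion and 0.0345 and 0 for TUBO, and Cox4i2, the lung form of subunit IV, at 1.40 and 0.792 CPM for DCC control, 0.0733 and 0 for DCC IFN-gamma, 0.0636 and 0.446 for early lesion and 0.276 and 0 for TUBO. Neither was called by edgeR in any comparison, while DESeq2 called Ndufa4l2 higher in DCC control than in early lesion (adjusted p = 0.0441) and than in TUBO (adjusted p = 0.0131). Cox7a1 and Cox6b2 stayed at or below 1.34 CPM in every library, and Cox7b2, Cox8b and Cox8c had too few counts to be tested.

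Among the 9 prefix members that are not subunits, the summed level was 149.9 and 148 for DCC control, 149.6 and 113 for DCC IFN-gamma, 124 and 119 for early lesion and 137 and 155 for TUBO. It did not follow that of the subunits: the DCC control mean was 1.23 times that of early lesion and 1.02 times that of TUBO. Ndufaf4 (chr4:24898083-24905001, plus strand), which helps build the matrix arm of complex I, was at 37.5 and 41.7 CPM for DCC control, 39.5 and 25.9 for DCC IFN-gamma, 14.3 and 10.8 for early lesion and 20.1 and 21.3 for TUBO. DCC control was above early lesion (1.65 ± 0.24, adjusted p = 3.74e-04) and above TUBO (0.94 ± 0.24, adjusted p = 0.00953). The assembly factor Ndufaf6 was at 7.79 and 6.89 CPM for DCC control, 10.4 and 7.55 for DCC IFN-gamma, 2.10 and 2.50 for early lesion and 8.83 and 7.86 for TUBO, lowest in early lesion, below DCC control (1.68 ± 0.38, adjusted p = 0.00527) and below TUBO with a TUBO to early lesion log2 fold change of 1.86 ± 0.38, adjusted p = 0.0055. Ndufaf2 was the 1 member of this group that was lower in DCC control than in early lesion (-0.60 ± 0.21, adjusted p = 0.0465). The call was lost with RLE or upper quartile factors, with DESeq2, without any 1 of the 4 libraries and without both that stood apart, with an adjusted p of up to 0.312. Ndufaf2 overlaps Smim15 on the opposite strand.

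Other genes of the pathway were taken from lists. Among 17 regulators of mitochondrial gene expression, 3 were lower and 3 higher in DCC control than in early lesion, and 5 lower and 3 higher than in TUBO. That is 17.6% in each direction against 18.7% and 19.1% of all genes, and 29.4% and 17.6% against 19.9% and 22.1%, so 3 of these 4 shares were below those of all genes. Ppargc1a (chr5:51454250-51567726, minus strand), the coactivator PGC-1 alpha that drives mitochondrial genes, was at 0.548 and 0.634 CPM for DCC control, 1.83 and 0.334 for DCC IFN-gamma, 102 and 87.7 for early lesion and 164 and 165 for TUBO. It was between 0.334 and 1.83 CPM in the DCC libraries and at or above 87.7 in the other 4 (-7.30 ± 0.59, adjusted p = 8.03e-05 and -8.09 ± 0.60, adjusted p = 4.82e-05). Esrra, the nuclear receptor it works with, was at 11.4 and 13.9 CPM for DCC control, 14.6 and 19.0 for DCC IFN-gamma, 19.9 and 19.8 for early lesion and 37.1 and 36.9 for TUBO (-0.64 ± 0.22, adjusted p = 0.0371 and -1.54 ± 0.22, adjusted p = 2.45e-04). Myc, a growth regulator on the same list, was higher in DCC control, at 710.0 and 627 CPM for DCC control, 872 and 778 for DCC IFN-gamma, 228 and 209 for early lesion and 275 and 311 for TUBO (1.61 ± 0.17, adjusted p = 2.76e-05 and 1.19 ± 0.16, adjusted p = 2.05e-04). With interferon gamma 1 of the 17 was called, or 5.88% against 12.6% of all genes higher. It was Yy1, which was higher (0.88 ± 0.14, adjusted p = 0.0015).

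A list of 8 genes, headed supercomplex and respirasome factors, held Higd1a, Higd2a, Chchd2, Chchd10, Stoml2, Phb, Phb2 and Opa1. Cox7a2l was not on it, so its shares describe these 8 genes and not supercomplex factors in general. Of the 8, 4 were lower and 1 higher against early lesion. Against TUBO 5 were lower and 0 higher, and 2 were higher at an unadjusted p under 0.05 and by DESeq2. The edgeR shares are 50% and 12.5% against 18.7% and 19.1% of all genes, and 62.5% and 0% against 19.9% and 22.1%. Chchd10 (chr10:75933130-75937747, plus strand), a protein of the space between the mitochondrial membranes, was at 1.58 and 1.78 CPM for DCC control, 4.47 and 3.17 for DCC IFN-gamma, 152 and 135 for early lesion and 522 and 560.0 for TUBO. The 4 groups did not overlap (-6.40 ± 0.23, adjusted p = 2.58e-08 and -8.31 ± 0.24, adjusted p = 1.39e-08), and it was higher with interferon gamma (1.18 ± 0.22, adjusted p = 0.00431). Higd1a, which binds complex IV, was at 27.0 and 24.9 CPM for DCC control, 28.0 and 33.2 for DCC IFN-gamma, 33.7 and 43.8 for early lesion and 122 and 114 for TUBO, lower against both (-0.58 ± 0.18, adjusted p = 0.0279 and -2.18 ± 0.19, adjusted p = 6.87e-06). Stoml2, a cardiolipin-binding membrane protein, went the other way against early lesion (1.32 ± 0.18, adjusted p = 2.40e-04).

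Of 17 citric acid cycle genes, 5 were lower and 0 higher against early lesion (0 also at an unadjusted p under 0.05 and by DESeq2), and 7 were lower and 0 higher against TUBO (1 by each of the other rules). The lower shares are 29.4% against 18.7% of all genes and 41.2% against 19.9%. Idh3a, the catalytic subunit of the NAD-linked isocitrate dehydrogenase, was at 78.2 and 80.9 CPM for DCC control, 113 and 88.1 for DCC IFN-gamma, 287 and 272 for early lesion and 234 and 236 for TUBO (-1.81 ± 0.16, adjusted p = 9.09e-06 and -1.56 ± 0.16, adjusted p = 2.37e-05). Pdha1, which feeds the cycle from pyruvate, was lower too (-0.83 ± 0.15, adjusted p = 0.00122 and -1.28 ± 0.15, adjusted p = 6.70e-05). A list of 16 genes, headed electron carriers and exchangers, is broader than that heading. It held Cycs, Slc25a3, Slc25a4, Slc25a5, Vdac1, Vdac2, Vdac3, Atpif1, Coq2, Coq3, Coq5, Coq6, Coq7, Coq9, Pdss1 and Pdss2. Of these 16 genes, 5 were lower and 2 higher against early lesion, and 6 lower and 3 higher against TUBO. These are 31.25% and 12.5% against 18.7% and 19.1% of all genes, and 37.5% and 18.75% against 19.9% and 22.1%. The adenine nucleotide carriers split: Slc25a5 was at 242 and 254 CPM for DCC control, 423 and 389 for DCC IFN-gamma, 709 and 589.9 for early lesion and 572 and 562 for TUBO and lower in DCC control (-1.39 ± 0.16, adjusted p = 6.76e-05 and -1.19 ± 0.16, adjusted p = 1.76e-04), while Slc25a4 was at 322 and 366 CPM for DCC control, 211 and 253 for DCC IFN-gamma, 266 and 228 for early lesion and 199.6 and 212 for TUBO and higher (0.48 ± 0.16, adjusted p = 0.0383 and 0.74 ± 0.16, adjusted p = 0.00398). Cytochrome c, encoded by Cycs, was higher with interferon gamma at 96.1 and 104 CPM for DCC control, 264 and 189.9 for DCC IFN-gamma, 158 and 130.2 for early lesion and 195 and 250.1 for TUBO (1.18 ± 0.20, adjusted p = 0.0023). Of 27 assembly factors outside the prefixes, 2 were lower and 3 higher against early lesion and 4 lower and 2 higher against TUBO. These are 7.41% and 11.1%, and 14.8% and 7.41%, each below the share of all genes given for the same comparison and direction. Cox11, a copper chaperone of complex IV, was lower in both (-1.25 ± 0.31, adjusted p = 0.00809 and -1.64 ± 0.31, adjusted p = 0.00161).

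**Figure D4:**
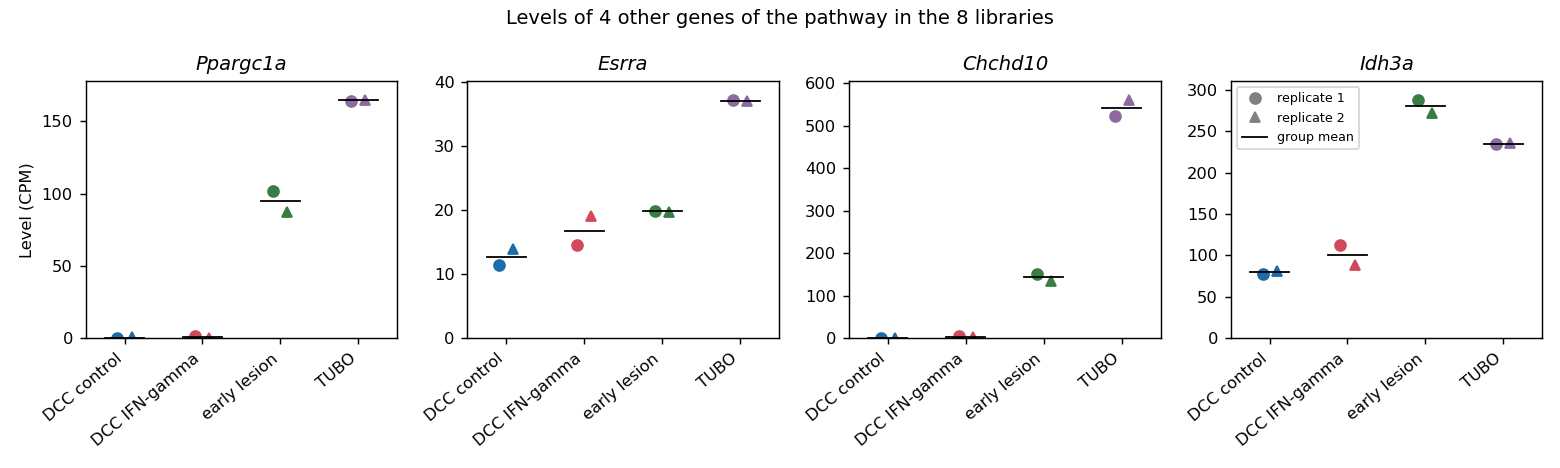
Level in CPM (vertical axes start at 0 and differ between panels) of 4 other genes of the pathway in each library, circles for replicate 1, triangles for replicate 2 and a bar at the group mean. Ppargc1a, Chchd10 and Idh3a are lower in all 4 DCC libraries than in early lesion and TUBO, and Esrra is lowest in DCC control and highest in TUBO.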

How the data were processed

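RNA of 8 libraries (4 groups, 2 replicates each) was made into sequencing libraries with a mouse RNA-seq kit, per the labels' protocols. The values are raw read counts for each gene, unnormalized, as the authors deposited them in 1 table, and the submitters' processing notes name TopHat, HTSeq 0.6.1 and mm10. No source used here gives the strand setting or the annotation. The table has 23478 gene lines and 5 closing lines (no feature, not unique and the like), which held 35.2% to 63.7% of the tallied reads and were left out of library sizes and tests. All columns were used.

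Genes were tested with edgeR 4.0.16 in R 4.3.3: TMM factors, filterByExpr with a minimum count of 10, the robust quasi-likelihood test on 4 group means with 4 residual degrees of freedom, and Benjamini-Hochberg adjustment over the 17069 genes kept. A gene was called at an adjusted p under 0.05. Levels are CPM on TMM-scaled library sizes, and log2 fold changes are given ± standard error, the fold change divided by the root of F. The method was also run on simulated data, whose spread was set below that of these data. That run does not show how the method performs here. With 2 libraries a group, p-values rest on the spread pooled over 4 groups, and the groups differed in spread. Over all genes, the chi-square per degree of freedom between replicates was 17.4 for DCC control and 160 for DCC IFN-gamma. It was 18.5 for early lesion and 33.5 for TUBO. Members at or above 10 CPM differed between replicates by a median of 1.10-fold, 1.19-fold, 1.13-fold and 1.23-fold, in the same order.

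The members and lists were chosen with earlier results of these data known. Named members are, per comparison, up to 6 called in each direction with the largest change among those at or above 10 CPM in the higher group with groups that do not overlap, fixed panels of catalytic subunits and of isoform pairs, and the highest and lowest per kilobase in each complex. List genes are up to 3 called per list and comparison, by size of change, and others were added after their values were seen. A gene of the catalytic panel is not reported here. Alternatives were RLE and upper quartile factors, no count filter, a filter of 50 counts in 2 libraries, DESeq2 1.42.0, a fit of the 2 groups alone, the replicate block and leaving out each library.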

Additional observations from a re-analysis of the deposited data

How the results depend on the processing

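Over the alternatives, counts of members called moved by more than 1.5 times as follows. For DCC IFN-gamma against DCC control, the 4 lower became 9 with upper quartile factors, 8 with a filter of 50 counts in 2 libraries and 8 with DESeq2, and without both libraries that stood apart 1 was higher and 1 lower. For DCC control against early lesion, the 5 higher became 8 with DESeq2 and 8 when only those 2 groups were fitted, and the 36 lower became 11 without both libraries. For DCC control against TUBO, the 51 lower became 25 without both. For TUBO against early lesion, the 2 lower became 8 when only those 2 groups were fitted, and without both libraries 5 were higher and 0 lower. Leaving out each library in turn gave 1 to 8 higher and 0 to 10 lower with interferon gamma, 5 higher in each case and 16 to 26 lower against early lesion, 1 to 2 higher and 31 to 45 lower against TUBO, and 9 to 16 higher and 0 to 1 lower for TUBO against early lesion. A lone library left in a group was assumed to vary like the other groups. The cause was not tested, beyond the smaller number of libraries in these fits.

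Over all alternatives, the median of complex I stayed between -0.41 and -0.24 against early lesion and between -0.77 and -0.54 against TUBO, that of complex IV between -0.82 and -0.61 and between -1.05 and -0.81, and that of complex V between -0.66 and -0.49 and between -0.75 and -0.55. With interferon gamma the medians of complexes I, III, IV and V took both signs. Replicate numbers are shared between groups, but deviations of same-numbered libraries correlated at -0.432 to 0.0957, so the numbers were not taken as pairs. With a replicate block the counts were 7 higher and 5 lower with interferon gamma, 5 and 38 against early lesion, 3 and 51 against TUBO, and 25 and 2 for TUBO against early lesion.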
